A study of Mus musculus with 12 samples.

Results

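Nuclear genes of oxidative phosphorylation were taken from the gene count table by name: every symbol that starts with Ndufa, Ndufb, Ndufc, Ndufs or Ndufv, the 4 Sdh genes, and every symbol that starts with Uqcr, with Cox4 to Cox8 or with Atp5. The rule found 92 genes of 24421. Of these, 74 encode common subunits and 8 encode tissue isoforms of subunits. The rule also takes in 7 assembly factors of complex I (Ndufaf1 to Ndufaf7), the supercomplex factor Cox7a2l, and Atp5s and Atp5sl, which are no subunits of the synthase. By complex there were 43 genes for complex I, 4 for II, 8 for III, 20 for IV and 17 for V, with Ndufa4 and its isoform Ndufa4l2 placed in complex IV, where the protein is found.

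RNA of livers of C57BL/6 mice aged 15 months was sequenced in 4 groups of 3 libraries: tumours of double knockouts lacking both Atg7 and Hmgb1 (DKO), non-tumour liver of DKO mice, tumours of Atg7 knockouts (Atg7KO) and non-tumour liver of Atg7KO mice. All 12 libraries therefore come from livers labelled as lacking Atg7, a gene needed to form autophagosomes. Hmgb1 encodes a chromatin protein that also acts as a danger signal outside cells. The labels name neither the promoter nor the cell type of either deletion, there is no liver with intact Atg7, and nothing says that libraries come from separate animals. Reads of Atg7 (88 to 401 per library) and of Hmgb1 (1732 to 4355) were present in every library, and the table counts whole genes, so this does not check the labels. Levels are in CPM, read counts relative to the library total after scaling by trimmed mean of M values, and differences are log2 fold changes of the edgeR quasi-likelihood fit with their standard error (SE).

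Oxidative phosphorylation passes electrons from NADH through complex I, or from succinate through complex II, to coenzyme Q, then through complex III, cytochrome c and complex IV to oxygen. Complexes I, III and IV pump protons across the inner mitochondrial membrane, and complex V, the ATP synthase, uses their return flow to make ATP. A few core subunits are encoded in the mitochondrial genome, whose genes were not analysed here. The hepatocyte is rich in mitochondria, and autophagy, which Atg7 serves, is one route by which cells remove them.

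Libraries held between 18292190 and 32354958 counted reads, and the 92 genes took between 0.866% and 1.40% of them. Of 10 hepatocyte marker names 9 are in the table, and their summed level was 57250 to 68350 CPM in DKO tumours, 62940 to 106400 CPM in DKO non-tumour liver, 26140 to 78870 CPM in Atg7KO tumours and 52640 to 116800 CPM in Atg7KO non-tumour liver. None of the 9 was without reads, but Alb gave most of each sum and single markers varied. Ass1 had only 0.20 to 2.63 CPM in any library. Cyp2e1 had 82.9 to 254 CPM in Atg7KO tumours, against 1311 to 6450 CPM in Atg7KO non-tumour liver. In DKO it had 240 to 2004 CPM in tumours, against 3252 to 8630 CPM in non-tumour liver. Of the 9 markers 7 were lower in the tumours of each genotype. The genotypes also differ in sex chromosome transcripts, which the labels do not mention: 4 Y-linked genes summed to 1898 to 4639 reads in DKO libraries, against 0 to 2 in Atg7KO libraries, and Xist had 0 to 2 reads in DKO libraries, against 1130 to 12216 in Atg7KO libraries. Genotype and this difference cannot be told apart in any comparison of DKO with Atg7KO below. In bulk tissue, fewer cells of a type and less RNA per cell cannot be told apart either.

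Of the 92 genes 87 passed the filter on low counts and were tested. Of the 5 that did not, Cox7b2 and Cox8c, known as testis isoforms, had 0 reads in every library. Cox8b, a muscle and brown fat isoform, had 0 to 7 reads and Cox6a2, a heart and muscle isoform, had 1 to 9. Ndufs5, a complex I subunit, had 2 reads in all 12 libraries together, although the other subunits of complex I that are named here averaged 19.1 CPM (Ndufb4) or more over the 12 libraries. Of its 50-base stretches 21.7% also occur in 1 other gene. None of the 5 gives a comparison, and the counts below are over the 87. Their median length was 758 bases, against 2862 bases for all 14443 tested genes.

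Per kilobase of gene length, which allows levels of different genes to be compared, the ATP synthase beta subunit Atp5b stood highest, with a mean of 586 CPM per kb over the 12 libraries. The leading genes of the other complexes were Ndufa4 in complex IV (534 CPM per kb), the small subunit Uqcrq in complex III (419), the accessory subunit Ndufb9 in complex I (272) and the membrane anchor Sdhc in complex II (191). Median levels were 283 CPM per kb for complex III, 215 for V, 212 for IV, 148 for II and 87.1 for I, where the 7 assembly factors lay at the low end with 3.00 to 19.5. Levels of genes with close copies are uncertain, since reads of copies can be shared or lost: of the 50-base stretches of Atp5l 84.8% occur in other genes, of Atp5o 45.6%, of Uqcrb 43.4%, of Ndufs3 39.7% and of Cox5b 21.8%.

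The isoforms were those of liver. Cox4i1 made up 99.4% to 99.96% of the length-scaled level of the Cox4i1 and Cox4i2 pair in every library, Cox6a1 at least 99.88% of its pair and Cox8a at least 99.73% of its trio. Among the 3 genes for the c-ring of the ATP synthase, which encode the same mature protein, Atp5g3 gave 64.3% to 72.5%, Atp5g1 14.5% to 25.03% and Atp5g2 9.53% to 14.3%. For Cox7a1, the heart and muscle isoform of a complex IV subunit, the share stood apart by genotype. It averaged 0.992% of the Cox7a1 and Cox7a2 pair in DKO tumours and 0.656% in DKO non-tumour liver, against 3.95% in Atg7KO tumours and 3.41% in Atg7KO non-tumour liver.

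Upstream sequences were searched for 3 motifs, each of which was more frequent in these promoters than in all promoters. RefSeq promoters of 300 bases (250 before the start, 50 after it, build GRCm38.p6) were at hand for 76 of the 92 genes and for 27025 genes in all. The core of the NRF1 motif, GCGCATGCG, was found on either strand in 13.2% of the 76, against 1.81% of all promoters and 2.41% of those of protein-coding genes. The ETS motif that GABP binds, CCGGAAG, was in 21.1%, against 9.12% and 11.9%, and the YY1 motif AAGATGGC in 13.2%, against 2.88% and 3.22%. NRF1 and GABP are known regulators of genes for the respiratory chain. At least 1 of the 3 motifs was in 42.1% of the 76 and 13% of all promoters; a match is a description of letters and not a site in use.

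The 250 bases before the start are printed for 4 genes named in the comparisons, each with a match in capitals (CCGGAAG, or CTTCCGG where it lies on the other strand, or overlapping NRF1 matches on both strands). They are chr17:56717512-56717761 (plus strand) for Ndufa11, chr10:80406822-80407071 (minus strand) for Uqcr11, chr4:116075071-116075320 (minus strand) for Uqcrh and chr5:115348959-115349208 (minus strand) for Cox6a1, read 5′ to 3′ along the gene.
Ndufa11: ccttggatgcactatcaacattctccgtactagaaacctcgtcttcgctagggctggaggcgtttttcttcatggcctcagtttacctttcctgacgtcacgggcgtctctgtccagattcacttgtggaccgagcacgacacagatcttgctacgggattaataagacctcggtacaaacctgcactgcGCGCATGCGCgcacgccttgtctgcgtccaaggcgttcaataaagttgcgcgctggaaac
Uqcr11: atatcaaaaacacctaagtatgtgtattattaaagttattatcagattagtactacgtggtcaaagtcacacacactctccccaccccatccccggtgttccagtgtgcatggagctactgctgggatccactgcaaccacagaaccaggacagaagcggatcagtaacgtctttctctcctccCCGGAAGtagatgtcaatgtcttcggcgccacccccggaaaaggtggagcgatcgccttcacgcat
Uqcrh: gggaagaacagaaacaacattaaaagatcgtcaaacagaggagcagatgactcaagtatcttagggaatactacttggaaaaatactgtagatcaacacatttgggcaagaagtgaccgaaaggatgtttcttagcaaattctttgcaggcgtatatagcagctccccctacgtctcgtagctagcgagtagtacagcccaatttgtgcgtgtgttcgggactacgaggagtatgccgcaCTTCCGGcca
Cox6a1: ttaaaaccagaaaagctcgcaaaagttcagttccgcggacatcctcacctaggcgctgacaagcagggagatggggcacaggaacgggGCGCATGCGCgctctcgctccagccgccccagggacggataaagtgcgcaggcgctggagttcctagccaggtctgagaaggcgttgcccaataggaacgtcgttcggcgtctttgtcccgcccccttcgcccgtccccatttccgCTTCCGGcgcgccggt

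Among tested genes, the 32 with a motif and the 41 without one had close medians of log2 fold change in each comparison, for example -0.82 and -0.75 in DKO tumours against DKO non-tumour liver. Nrf1 itself was 0.13 on the log2 scale and Gabpa 0.05 in that comparison, with edgeR adjusted p of 0.766 and 0.904. Exons of Gabpa overlap those of Atp5j on the opposite strand, and the strand setting of the counts is not given in the sources used here.

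**Figure D1:**
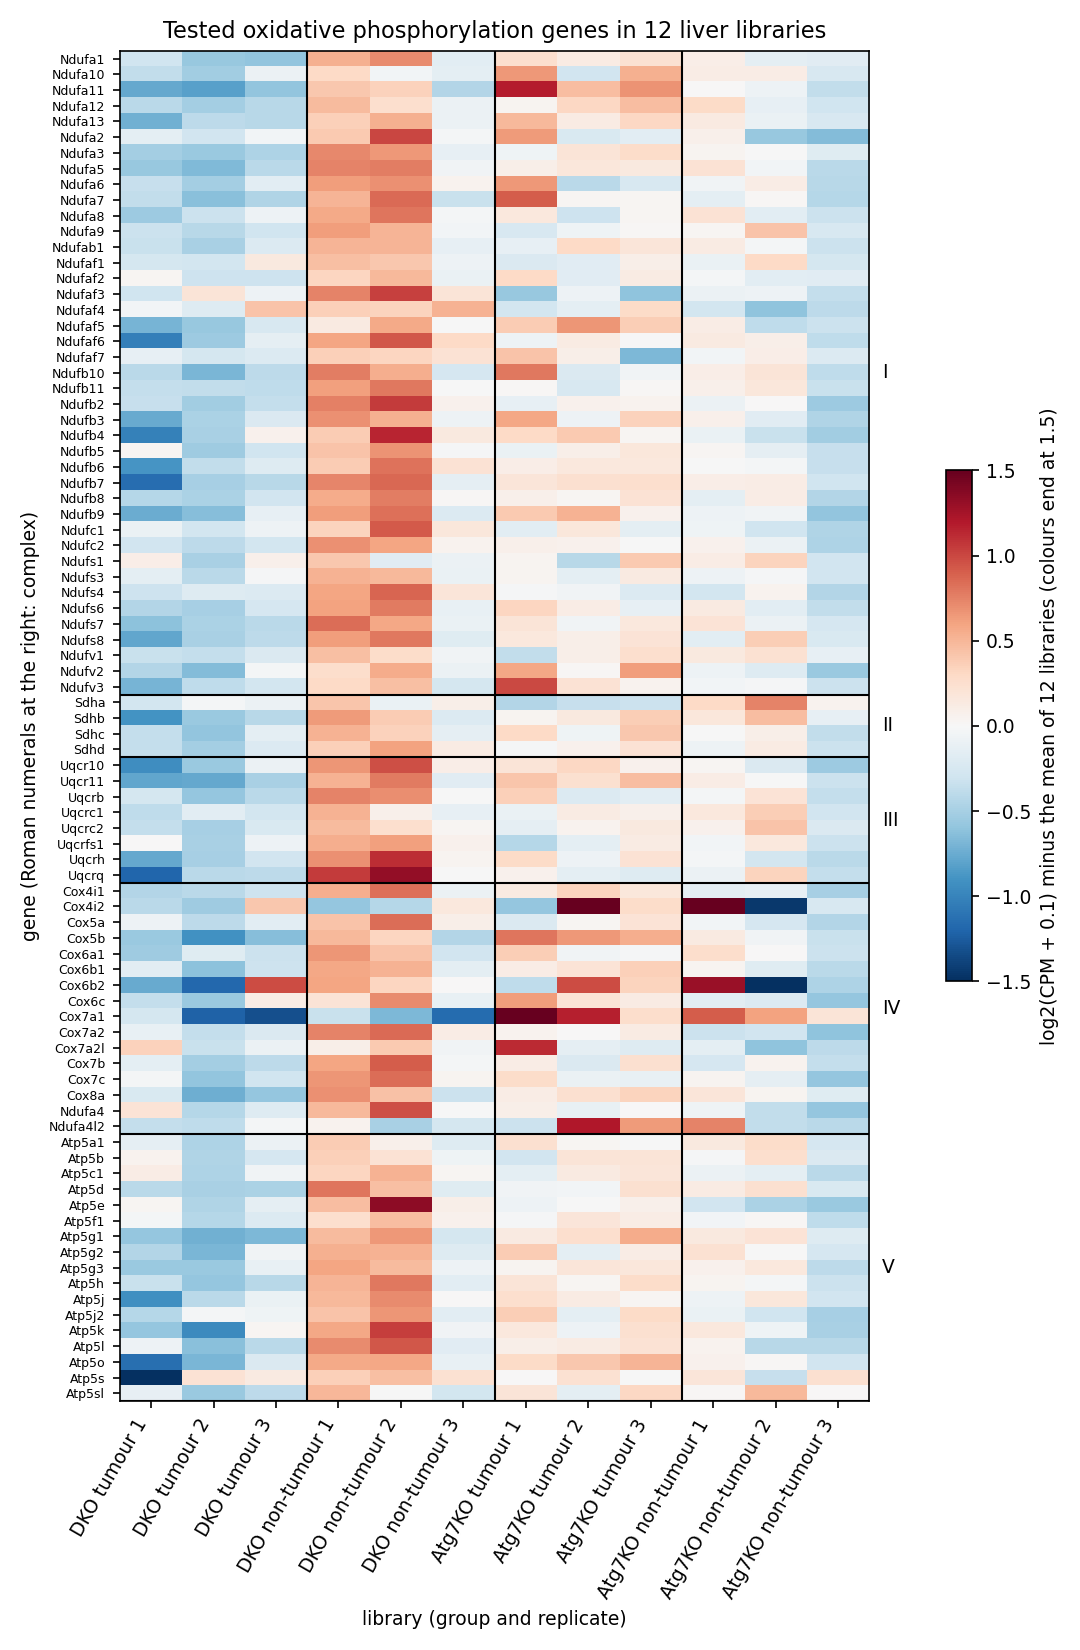
Level of 86 of the 87 tested genes (rows, grouped by complex) in the 12 libraries (columns), as log2(CPM + 0.1) minus the gene's mean over the libraries. DKO tumour libraries are mostly below the mean, DKO non-tumour replicates 1 and 2 are above it across all 5 complexes, and DKO non-tumour replicate 3 lies between.

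In DKO tumours nearly all genes of oxidative phosphorylation stood below their level in DKO non-tumour liver. Of 87 tested genes 86 had a log2 fold change below 0, with a median of -0.75, where the median of all 14443 tested genes was 0.01. The shift ran through all 5 complexes, with medians of -0.79 for complex I (42 of 42 below 0), -0.68 for II (4 of 4), -1.02 for III (8 of 8), -0.67 for IV (15 of 16) and -0.75 for V (17 of 17). No single gene passed the threshold of the edgeR test, an adjusted p under 0.05, nor did any gene of the whole table (0%). The lowest adjusted p was 0.117, shared by many genes.

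Counts at other thresholds were uneven across tools. At an unadjusted edgeR p under 0.05, 66 of the 87 were lower and 0 higher, where 10.3% of all tested genes were lower. DESeq2 called 48 of 85 lower at an adjusted p under 0.05, against 4.1% of all genes with an adjusted p, and limma voom with quality weights called 0, as it did for all genes. For 58 of the 87 genes every tumour value was under the lowest non-tumour value, against 13.8% of all tested genes. DKO non-tumour replicate 3 decides the edgeR count: without it edgeR called 43 of the 87 lower, against 2.04% of all tested genes, with a median of -0.94. This library was singled out after each had been left out in turn. It was the DKO non-tumour library nearest to the tumours, so leaving it out widens the difference and keeps only replicates 1 and 2 of its group. Of these 43 genes 22 belong to complex I, 1 to II, 5 to III, 7 to IV and 8 to V, and 41 were also among the 48 of DESeq2.

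The 3 lowest p were those of Ndufa5, Uqcr11 and Ndufa3. Ndufa5, an accessory subunit of the matrix arm (NM_026614, mm10 chromosome 6, 24518666 to 24527687), had 34.7, 32.5 and 38.6 CPM in DKO tumours, against 86.1, 87.1 and 49.7 CPM in DKO non-tumour liver. Its log2 fold change was -1.07 (SE 0.23, edgeR adjusted p = 0.117). The groups did not overlap, and the third non-tumour library was much closer to the tumours than the other two. Ndufa3, an accessory subunit of the membrane arm, had 42.5, 41.0 and 43.7 CPM in DKO tumours, against 99.5, 94.7 and 55.5 CPM in DKO non-tumour liver, and non-tumour replicate 3 was again nearest to the tumours.

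The catalytic core of complex I was less even. Ndufs7 and Ndufs8, iron-sulfur subunits next to the coenzyme Q site, averaged 39.7 ± 2.93 and 45.2 ± 6.12 CPM in DKO tumours, against 78.9 ± 24.3 and 91.2 ± 29.1 CPM in DKO non-tumour liver (SD, n = 3 each). Both were among the genes DESeq2 called, with log2 fold changes of -0.99 and -1.01 in the edgeR fit. Ndufv1, which binds NADH and flavin, differed by -0.54 and its partner Ndufv2 by -0.62, without a call by either tool. Ndufs1, the largest iron-sulfur subunit and the longest of the core genes, averaged 92.2 ± 19.9 CPM in DKO tumours and 102 ± 23.1 CPM in DKO non-tumour liver, within the spread of the libraries. Ndufab1, the acyl carrier protein of mitochondria, differed by -0.66.

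In complex II, which also serves the citric acid cycle, Sdhb, the iron-sulfur subunit, had 81.3, 103 and 114 CPM in DKO tumours, against 236, 197 and 132 CPM in DKO non-tumour liver (log2 fold change -0.92, SE 0.25, edgeR adjusted p = 0.118). The membrane anchors Sdhc and Sdhd differed by -0.62 and -0.73. Sdha, the flavoprotein with the succinate site, differed by -0.28, with overlapping groups. DESeq2 called Sdhb and Sdhd.

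Complex III had the lowest median, and Uqcrq had the lowest log2 fold change of all 87 genes. Uqcrq (NM_025352, mm10 chromosome 11, 53428948 to 53430831) had 82.4, 142 and 144 CPM in DKO tumours, against 389, 469 and 187 CPM in DKO non-tumour liver, a log2 fold change of -1.51 (SE 0.34, edgeR adjusted p = 0.117). Its non-tumour libraries were widely spread, at 349 ± 145 CPM (SD, n = 3). Uqcr11, another small subunit, had 77.9, 78.6 and 95.6 CPM in DKO tumours, against 193, 229 and 119 CPM in DKO non-tumour liver (-1.10). The long core genes differed by less: -0.46 for Uqcrc1, -0.62 for Uqcrc2 and -0.61 for Uqcrfs1, the Rieske iron-sulfur protein.

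In complex IV the liver isoform Cox7a2 had 103, 86.8 and 96.0 CPM in DKO tumours, against 187, 201 and 120 CPM in DKO non-tumour liver (log2 fold change -0.83, SE 0.20, edgeR adjusted p = 0.117). Cox4i1, a subunit with a regulatory role, averaged 278 ± 12.9 CPM in DKO tumours and 504 ± 154 CPM in DKO non-tumour liver (SD, n = 3 each; -0.86). Cox8a and Cox5a differed by -0.82 and -0.69, and all 3 were among the genes DESeq2 called. Cox6a1 and Ndufa4 (-0.66 for both) had overlapping groups. The tissue isoforms Cox4i2, Cox7a1 and Ndufa4l2 stood at 0.15, -0.19 and -0.04, with 9 to 22, 10 to 26 and 66 to 94 reads per DKO tumour library.

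In complex V the alpha, beta and gamma genes, of 1800 to 2431 bases, differed by less than the complex median of -0.75. Atp5a1 and Atp5b (alpha and beta, the catalytic hexamer) differed by -0.33 and -0.39 and the gamma subunit Atp5c1 by -0.42, with overlapping groups for all 3. Atp5b had 1127, 796 and 911 CPM in DKO tumours, against 1395, 1265 and 1041 CPM in DKO non-tumour liver. The epsilon subunit Atp5e, one of the shortest genes of the set, differed by -0.90. The c-ring genes differed by -0.996 (Atp5g1), -0.70 (Atp5g2) and -0.75 (Atp5g3). Atp5g1 had 60.8, 55.2 and 56.8 CPM in DKO tumours, against 126, 143 and 75.4 CPM in DKO non-tumour liver, and again the third non-tumour library was nearest to the tumours.

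**Figure D2:**
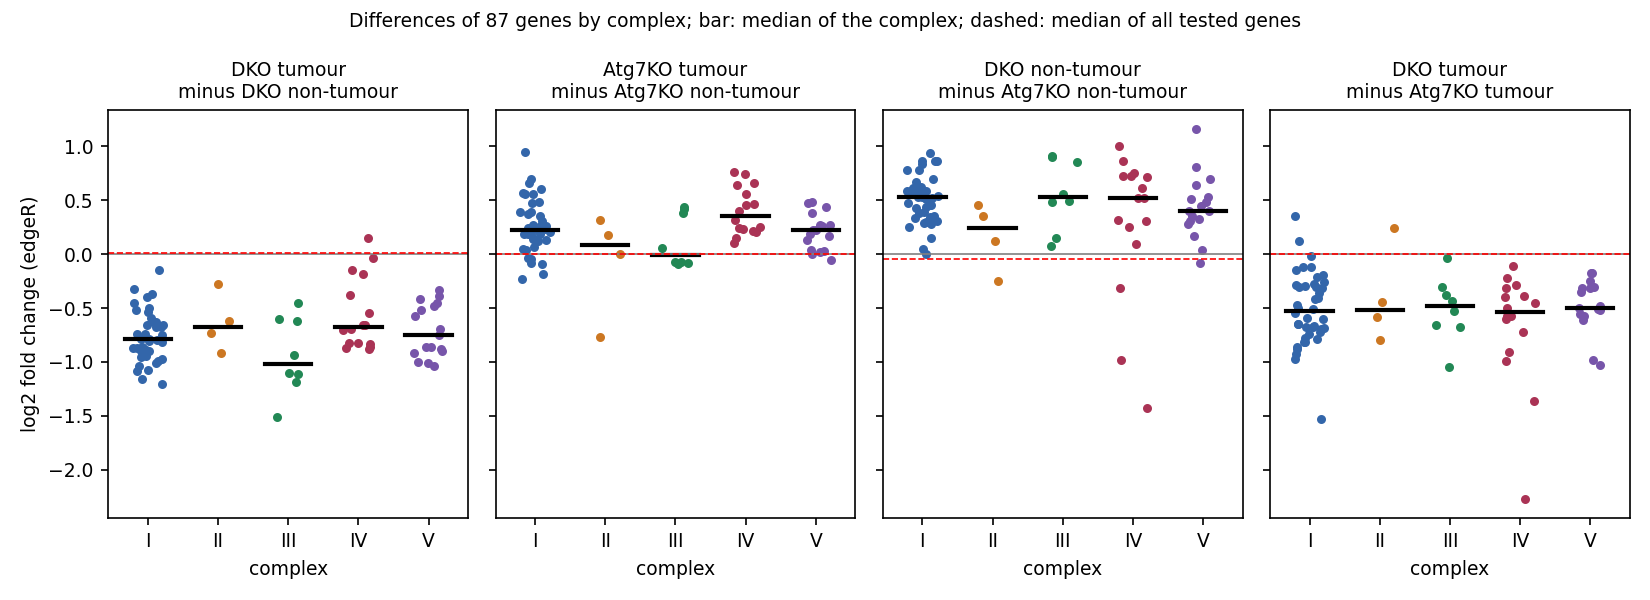
Log2 fold change of each of the 87 tested genes by complex in 4 comparisons, 1 point a gene. The medians of all 5 complexes lie below the median of all tested genes in DKO tumours against DKO non-tumour liver (-1.02 to -0.67), and above it or close to it in Atg7KO tumours against Atg7KO non-tumour liver (-0.01 to 0.36).

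Gene length moves with these differences. Over all tested genes, Spearman's rho of log2 fold change with length was 0.495 in DKO tumours against DKO non-tumour liver, as a description across genes, which are no replicates. A slope on log2 length was taken of log2 CPM centred on the 12 libraries, over the tested genes outside the 87. It was 0.23, 0.12 and 0.06 per doubling in DKO tumour libraries, against -0.17, -0.33 and -0.00 in DKO non-tumour libraries. In the third non-tumour library, the one nearest to the tumours, the slope was nearest to 0. The mean of the 87 genes on the centred log2 CPM scale was -0.42, -0.49 and -0.22 in DKO tumours, against 0.50, 0.57 and -0.07 in DKO non-tumour liver. How much of the difference comes with length was measured by genes of like length and by a length term in the fit.

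Against genes of like length, the oxidative phosphorylation genes of DKO tumours were still lower. Under 600 bases their median log2 fold change was -0.89 (30 genes), against -0.57 for the other 207 tested genes of that length. From 600 to under 1000 bases it was -0.79 (24 genes), against -0.55 for 755 others, from 1000 to under 2000 bases -0.62 (25 genes), against -0.31 for 3263 others, and from 2000 bases up -0.39 (8 genes), against 0.16 for 10131 others. Genes of like length and like level gave the same order: in the short genes of 100 to under 300 CPM the median was -0.87 (15 genes), against -0.50 for 27 others, and in those of 1000 to under 2000 bases at the same level -0.62 (17 genes), against -0.34 for 278 others. Genes of 600 to under 1000 bases under 10 CPM went the other way, with -0.04 for 3 tissue isoforms of complex IV, against -0.47 for 319 others, and at 300 CPM or more, over all lengths, the 5 genes and the 426 others had the same median of -0.39.

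With a length curve per library in the fit, the median of the 87 in DKO tumours against DKO non-tumour liver was -0.31 and 78 were below 0. The medians by complex were then -0.35 for I, -0.31 for II, -0.48 for III, -0.12 for IV and -0.30 for V, where 6 of 16 complex IV genes were above 0. At an unadjusted p under 0.05, 18 of the 87 were lower, against 6.42% of all tested genes: 13 in complex I, 4 in III, 1 in V and 0 in II and IV. What sets the remaining difference was not tested.

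**Figure D3:**
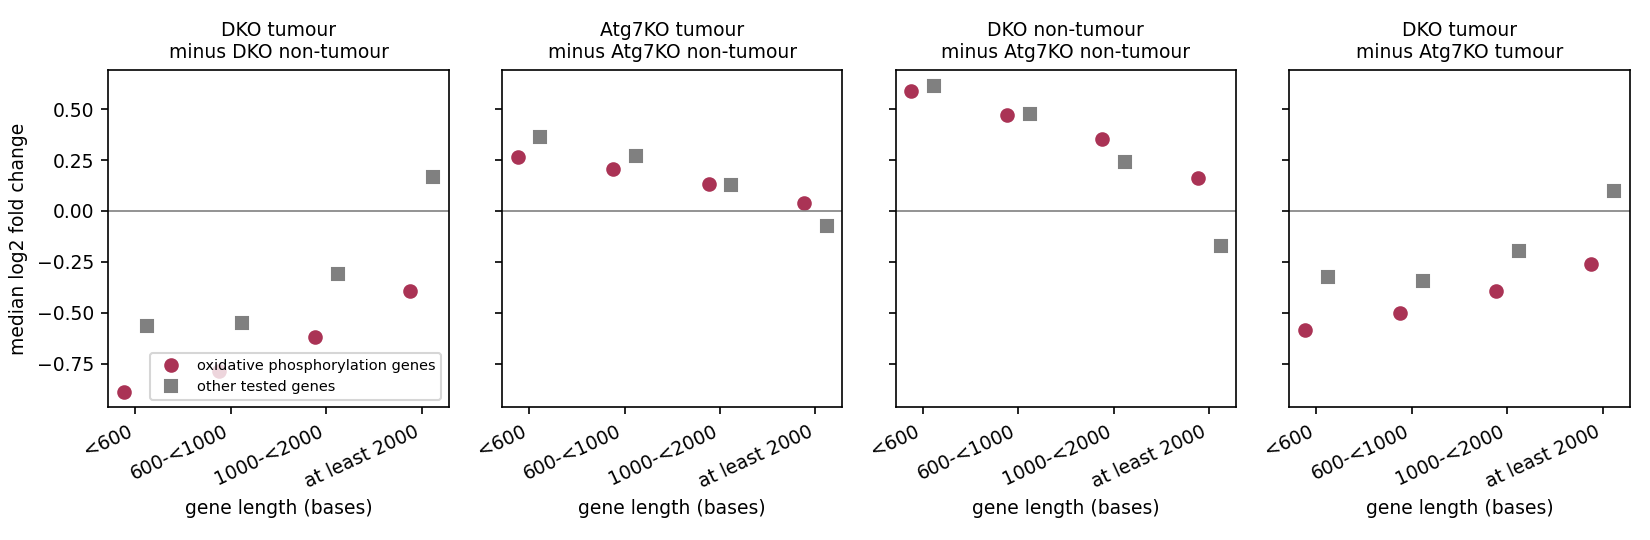
Median log2 fold change of oxidative phosphorylation genes (circles) and of the other tested genes (squares) in 4 bins of gene length, for 4 comparisons. The circles lie below the squares in every bin for DKO tumours against DKO non-tumour liver and for DKO against Atg7KO tumours, and close to them under 2000 bases in the other panels.

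**Figure D4:**
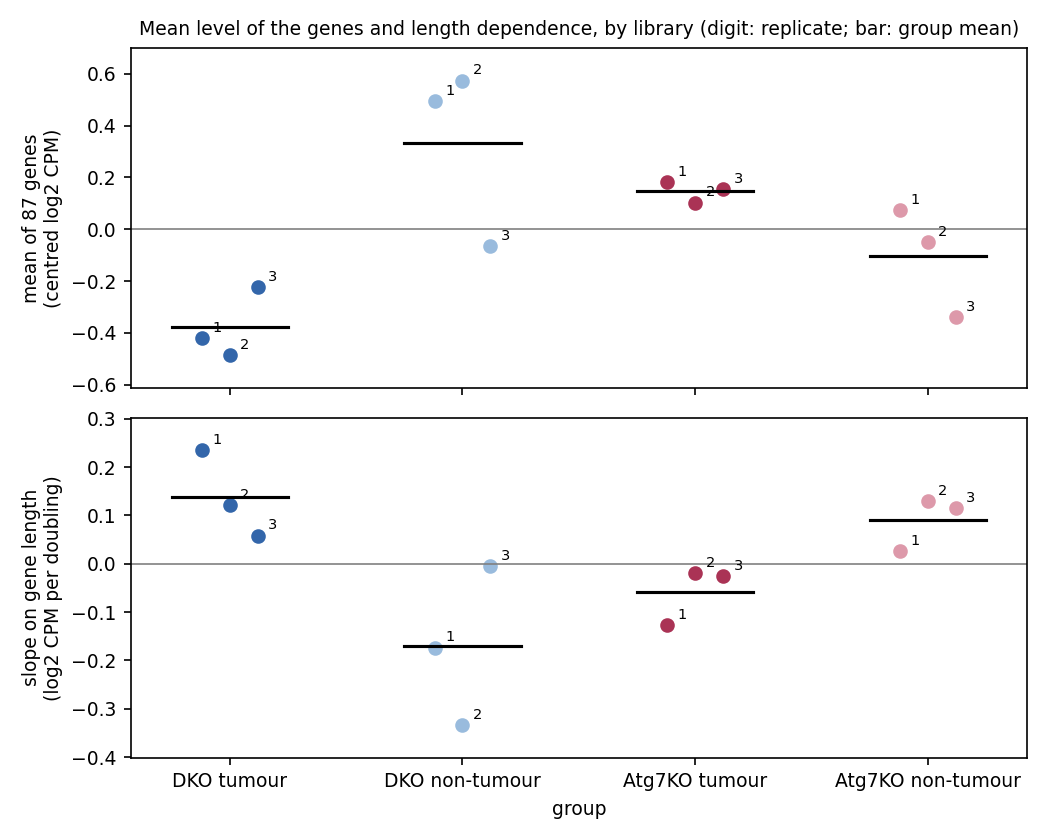
Upper panel: mean of the 87 genes on the centred log2 CPM scale in each library. Lower panel: slope of centred log2 CPM on log2 gene length over the tested genes outside the 87. Bars are group means. DKO non-tumour replicates 1 and 2 have the highest means (0.50 and 0.57) and the lowest slopes (-0.17 and -0.33).

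In Atg7KO tumours the genes were slightly above Atg7KO non-tumour liver, mostly within the spread of the libraries. Of the 87 genes 74 had a log2 fold change above 0, with a median of 0.23, against -0.00 for all tested genes. Complex IV had the highest median (0.36, with 16 of 16 above 0), followed by I (0.22) and V (0.22), II (0.09) and III (-0.01). EdgeR called 0 of the 87, as of all genes (0%). At an unadjusted p under 0.05, 8 were higher and 1 lower, where 8.04% of all tested genes were higher, a share near that of the background. DESeq2 called Ndufa11 higher, against 1.86% of all genes, and Sdha lower, and limma voom called Ndufa11 alone, against 0.741%. In 20 genes all tumour libraries lay above all non-tumour libraries, against 11.6% of all tested genes.

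Ndufa11, an accessory subunit of the membrane arm of complex I (NM_027244, mm10 chromosome 17, 56717762 to 56724248), had 118, 71.7 and 83.4 CPM in Atg7KO tumours, against 52.5, 49.4 and 40.4 CPM in Atg7KO non-tumour liver. Its log2 fold change was 0.94 (SE 0.25, edgeR adjusted p = 0.137, DESeq2 adjusted p = 0.0242). Its deposited length of 2661 bases is long for the set, and with the length curve it stood at 1.02. Its protein-coding GENCODE transcripts hold 1103 different 50-base stretches, fewer than that length would give. The value of 1.02 therefore rests on the deposited length. Cox5b, the zinc-binding subunit of complex IV, had 280, 251 and 234 CPM in Atg7KO tumours, against 176, 155 and 127 CPM in Atg7KO non-tumour liver (0.74, SE 0.24, edgeR adjusted p = 0.19). For both genes the groups did not overlap.

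Sdha (NM_023281, mm10 chromosome 13, 74322255 to 74350240) went the other way. It had 222, 237 and 241 CPM in Atg7KO tumours, against 371, 505 and 313 CPM in Atg7KO non-tumour liver, a log2 fold change of -0.76 (SE 0.23, edgeR adjusted p = 0.171). It was the 1 gene of the 87 with all tumour libraries below all non-tumour libraries, while Sdhb, Sdhc and Sdhd of the same complex stood at 0.00, 0.31 and 0.17. The lowest p of complex III was that of Uqcr11 (0.44, edgeR adjusted p = 0.374) and of complex V that of Atp5j2, the f subunit (0.48, edgeR adjusted p = 0.339).

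In this genotype the medians were close to those of genes of like length. Under 600 bases the median was 0.27, against 0.36 for others, from 600 to under 1000 bases 0.21, against 0.27, from 1000 to under 2000 bases 0.13, against 0.13, and from 2000 bases up 0.04, against -0.08. With the length curve the median was 0.04, against 0.07 for all tested genes. The summed hepatocyte markers, given above, were lower in tumours for 7 of 9 genes in both genotypes, and their part in these differences was not tested. Of the other cell types with marker lists, 2 had summed levels that did not overlap between tumour and non-tumour libraries of a genotype. Macrophage markers summed to 494 to 745 CPM in DKO tumours, against 955 to 1147 CPM in DKO non-tumour liver, with 5 of 6 below 0. Stellate cell and fibroblast markers summed to 313 to 407 CPM in Atg7KO tumours, against 474 to 1025 CPM in Atg7KO non-tumour liver, with 7 of 8 below 0. No defining marker of these 2 lists was without reads. The bile duct sums overlapped, and Spp1 made up most of each. In Atg7KO tumours 5 of the 7 bile duct markers were below 0. Krt19, Krt7 and Epcam did not overlap between Atg7KO tumour and non-tumour libraries, while Sox9, Spp1, Cldn4 and Cftr did. The part of any of these cells was not tested.

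The tumour difference itself differed between genotypes by a median of -0.99 in log2 (DKO minus Atg7KO, the interaction), with 86 of 87 genes below 0 and 0.04 as the median of all tested genes. EdgeR called 0 of the 87 and 0% of all genes. At an unadjusted p under 0.05, 66 were lower, against 8.45% of all tested genes, DESeq2 called 32 of 83 lower, against 2.47%, and limma voom called 0. The lowest p were those of Ndufa11 (-1.81, SE 0.35), Cox5b (-1.61, SE 0.34) and Uqcr11 (-1.54, SE 0.34), each with an edgeR adjusted p of 0.175. Sdhd (-0.90) had the lowest p of complex II and the stalk subunit Atp5o (-1.48) that of complex V. Sdha was the 1 gene above 0 (0.49). In 16 genes every Atg7KO tumour lay above every Atg7KO non-tumour library and every DKO tumour below every DKO non-tumour library, against 1.62% of all tested genes. Genes of like length differed in the same direction: under 600 bases the median was -1.17 for the oxidative phosphorylation genes, against -0.97 for others, from 600 to under 1000 bases -0.93, against -0.81, from 1000 to under 2000 bases -0.90, against -0.42, and from 2000 bases up -0.48, against 0.25. Among short genes of 100 to under 300 CPM the medians were close, with -1.14, against -1.08 for others, all of which were below 0. At 600 to under 1000 bases and 30 to under 100 CPM both were -0.92. With the length curve the median of the interaction was -0.34.

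**Figure D5:**
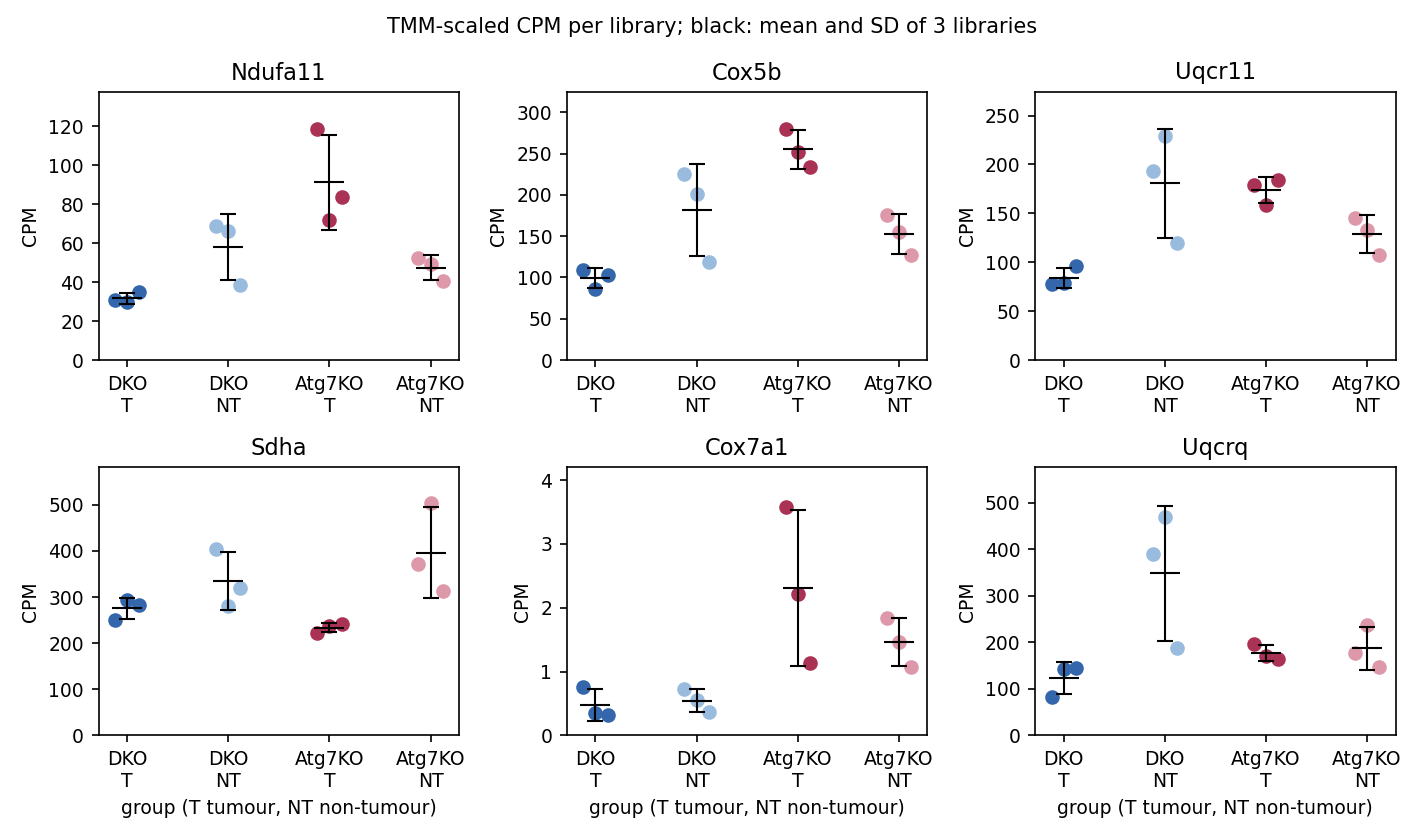
CPM of 6 genes in each library, with mean and SD of 3 libraries in black. Ndufa11, Cox5b and Uqcr11 are lower in DKO tumours and higher in Atg7KO tumours than in the non-tumour liver of the same genotype, and Cox7a1 is lower in both DKO groups than in both Atg7KO groups.

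Set against Atg7KO non-tumour liver, DKO non-tumour liver had a higher CPM for most of these genes. The median log2 fold change was 0.49, with 81 of 87 above 0, against -0.05 for all tested genes, and the medians were 0.53 for complex I, 0.24 for II, 0.52 for III, 0.52 for IV and 0.40 for V. EdgeR called none of the 87 and 0.0554% of all genes. At an unadjusted p under 0.05, 41 were higher and 1 lower, where 7.37% of all genes were higher. DESeq2 called 5 of 84 higher, against 1.11% of all genes, limma voom 18, against 2.35%, and in 21 genes all DKO libraries lay above all Atg7KO libraries, against 11.6%.

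The 5 genes of DESeq2 were Cox7a2, Atp5e, Ndufs4, Ndufaf4 and Uqcrh. Cox7a2 had 187, 201 and 120 CPM in DKO non-tumour liver, against 89.2, 91.4 and 73.4 CPM in Atg7KO non-tumour liver (log2 fold change 0.999, SE 0.21, edgeR adjusted p = 0.211, DESeq2 adjusted p = 0.00243). Atp5e had 151, 279 and 117 CPM in DKO non-tumour liver, against 90.0, 79.4 and 74.9 CPM in Atg7KO non-tumour liver (1.16, SE 0.28). The DKO libraries lay above all Atg7KO libraries for both genes, with replicate 3 the lowest of them. Ndufs4, an accessory subunit of the NADH-oxidising module, averaged 95.5 ± 22.1 CPM in DKO and 55.5 ± 9.85 CPM in Atg7KO non-tumour liver (SD, n = 3 each; 0.78), and Uqcrh, the hinge protein next to cytochrome c1, differed by 0.90. In complex II the lowest p was that of Sdhd (0.45, edgeR adjusted p = 0.314).

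Under 2000 bases the medians were again close to those of genes of like length: 0.59 under 600 bases, against 0.62 for others, 0.47 from 600 to under 1000 bases, against 0.47, and 0.35 from 1000 to under 2000 bases, against 0.24. From 2000 bases up the 8 genes had a median of 0.16, against -0.17. With the length curve the median of the 87 was 0.12.

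DKO tumours, set against Atg7KO tumours, had a lower CPM for most of these genes. The median was -0.50, with 84 of 87 below 0, against 0.00 for all tested genes, and the 5 complexes were alike, with medians between -0.54 and -0.48. EdgeR called none of the 87 and 0.0485% of all genes. At an unadjusted p under 0.05, 37 were lower, against 8.27% of all genes. DESeq2 called 10 of 86 lower, against 2.09%, limma voom Ndufa11 and Cox5b, against 0.159%, and in 52 genes all DKO libraries lay below all Atg7KO libraries, against 10.3%. Without DKO non-tumour replicate 3, which enters this fit through the shared spread, edgeR called 2 of these genes lower, against 0.0272% of all tested genes.

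Ndufa11 had 30.6, 29.6 and 34.7 CPM in DKO tumours, against 118, 71.7 and 83.4 CPM in Atg7KO tumours, a log2 fold change of -1.53 (SE 0.25) and an edgeR adjusted p of 0.0585, the lowest of any of the 87 in the 5 comparisons. Cox5b had 109, 85.8 and 103 CPM in DKO tumours, against 280, 251 and 234 CPM in Atg7KO tumours (-1.36, SE 0.25, edgeR adjusted p = 0.0708). In both genes every Atg7KO tumour lay above every DKO tumour by a wide gap. Uqcr11 followed with -1.05 (edgeR adjusted p = 0.118), Atp5g1 with -0.99 in complex V and Sdhb with -0.80 in complex II. Sdha was above in all DKO tumours, with 249, 294 and 283 CPM, against 222, 237 and 241 CPM in Atg7KO tumours (0.24, edgeR adjusted p = 0.606).

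Cox7a1 (NM_009944, mm10 chromosome 7, 30184171 to 30186030) had the lowest log2 fold change between the genotypes in both tissues. It had 0.757, 0.347 and 0.313 CPM in DKO tumours, against 3.58, 2.22 and 1.14 CPM in Atg7KO tumours (-2.27, SE 0.54, edgeR adjusted p = 0.129). In non-tumour liver it had 0.722, 0.546 and 0.364 CPM in DKO, against 1.84, 1.47 and 1.08 CPM in Atg7KO (-1.43, SE 0.54, edgeR adjusted p = 0.279). The groups did not overlap in either tissue, but the counts are low, with 8 to 26 reads in DKO libraries and 32 to 84 in Atg7KO libraries. Markers of skeletal muscle summed to at most 2.17 CPM and those of brown fat to at most 5.20 CPM in any library. Cox7a2, the liver isoform of the pair, differed by -0.28 in tumours and by 0.999 in non-tumour liver.

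Like-length genes differed by less than these genes between the tumours: the median was -0.59 under 600 bases, against -0.32 for others, -0.50 from 600 to under 1000 bases, against -0.34, -0.39 from 1000 to under 2000 bases, against -0.20, and -0.26 from 2000 bases up, against 0.10. Matched for level as well, genes of 600 to under 1000 bases at 30 to under 100 CPM had close medians. These were -0.41 for 8 oxidative phosphorylation genes, against -0.44 for 143 others. With the length curve the median of the 87 was -0.25.

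Other genes of the pathway in DKO tumours against DKO non-tumour liver mostly had log2 fold changes below 0 as well. Of the 5 electron carriers all were below 0, with a median of -0.74, and DESeq2 called Cyc1, the cytochrome c1 of complex III (-0.74), and Etfb, which passes electrons from fatty acid oxidation (-1.07). Of 10 genes of coenzyme Q synthesis all were below 0 (median -0.44), and DESeq2 called Coq3 and Coq9. Assembly factors had medians of -0.53 for complex I, -0.46 for II, -0.49 for III, -0.48 for IV and -0.48 for V, with 2 of 6, 1 of 4, 1 of 6, 4 of 18 and 0 of 4 called lower by DESeq2, against 4.1% of all genes, and edgeR called 0 in each. With the length curve these medians were -0.44, -0.15, -0.30, -0.10 and -0.29, and those of the electron carriers and coenzyme Q synthesis were -0.39 and -0.24. The 13 regulators of mitochondrial biogenesis had a median of 0.09, which turned to -0.12 with the length curve, and 0 calls by either tool. Ppargc1a, a coactivator of such genes, stood at 0.59 (edgeR adjusted p = 0.514). It had 23.0, 6.45 and 5.47 CPM in DKO tumours, against 5.39, 9.29 and 8.61 CPM in DKO non-tumour liver. Only the first tumour library lay above all non-tumour libraries. Ppargc1a stood at -1.17 in Atg7KO tumours against Atg7KO non-tumour liver (edgeR adjusted p = 0.28), with every tumour library below every non-tumour library. In Atg7KO tumours against Atg7KO non-tumour liver, DESeq2 called 5 genes of these lists higher, against 1.86% of all genes, and edgeR called 0. They were Cycs, which encodes cytochrome c (0.62), Atpif1, the inhibitor of the ATP synthase (1.13), and the assembly factors Uqcc2 of complex III (1.25), Sdhaf4 of complex II (0.80) and Coa5 of complex IV (0.53). Groups overlapped for Atpif1 and for none of the other 4.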

How the data were processed

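RNA-seq of 12 liver libraries was analysed. The authors deposited raw counts, 1 whole number per gene and library, beside gene lengths and mm10 coordinates. The submitters' processing notes name STAR 2.5.3a, Subread 1.5.3 (featureCounts), bcl2fastq and edgeR 3.20.8. Strand setting, annotation release and library kit are not given in the sources used here, and overlapping genes or close copies may therefore have mixed or lost reads. The common biological coefficient of variation was 0.365.

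Low genes were removed by filterByExpr, whose minimum was 10 for a count and 15 for a total. The quasi-likelihood F test of edgeR 4.0.16 (robust, legacy deviances, TMM scaling, R 4.3.3) was run on all 12 libraries together, with 1 coefficient for each group. Tests were two-sided, with p adjusted by Benjamini-Hochberg over all 14443 tested genes in each of 5 comparisons and calls at an adjusted p under 0.05. The labels give no batch and do not say that libraries are separate animals, so p-values measure the spread between these libraries, which may be technical. With 3 libraries a group, permutation could reach no p under 0.1 and was not used. Comparisons share libraries.

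Alternatives were RLE factors, DESeq2 1.42.0 on the same genes, limma 3.58.1 voom with quality weights, no filter, a length curve per library (natural spline with 5 degrees of freedom, fitted without the 87 genes), a block for replicate numbers, each library left out, and names that are not subunits left out. Means over genes used log2 CPM with a prior count of 2, centred on the 12 libraries. Named genes were a set chosen by role, the 3 genes with the lowest p of each comparison, and in each complex the gene with the lowest p and that with the highest level. Others, such as Ndufaf4, Cyc1 or Cycs, were named after their values were seen. The values of 1 gene are not reported singly here. The genes and lists were chosen with earlier results of these data known. Promoters come from RefSeq and shared stretches from GENCODE transcripts. The fit was also run on simulated counts that held no length trend. That run cannot show how the fit handles the length trend seen here. Plots were made with python 3.11.15 and matplotlib 3.10.9.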

Additional observations from a re-analysis of the deposited data

Results flagged for a closer look

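The mean of the 87 genes on the centred log2 CPM scale lay above all Atg7KO non-tumour libraries in every Atg7KO tumour and below all DKO non-tumour libraries in every DKO tumour. The tumour difference in DKO minus that in Atg7KO was -0.96 on this scale, and no test was run on this mean. Among the genes named for the interaction, 4 did the same: Ndufa11 with an interaction of -1.81, Cox5b with -1.61, Uqcr11 with -1.54 and Atp5o with -1.48, each with an edgeR adjusted p of 0.175, so the test of the difference did not pass. The slope on gene length moved with this mean. The mean was also taken after the length curve of each library was removed. It was then 0.0094, 0.11 and 0.12 in Atg7KO tumours, against 0.024, 0.17 and -0.22 in Atg7KO non-tumour liver. In DKO it was -0.026, -0.33 and -0.19 in tumours, against 0.32, 0.10 and -0.094 in non-tumour liver. With length removed the groups overlapped in each genotype, and the part of length was not tested. No formal search for outlying samples was made in groups of 3 libraries, but limma voom weighted each library and each was left out in turn. DKO tumour replicate 1 had the lowest weight (0.271) and the highest slope on length (0.23). DKO non-tumour replicate 2 had the fewest counted reads (18292190) and the lowest slope (-0.33).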

How the results depend on the processing

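The median over the 87 genes kept its direction in all 5 comparisons under every alternative run. In Atg7KO tumours with the length curve it was 0.04, below the 0.07 of all tested genes. The median of the 87 genes moved by more than the spread between replicates under the length curve in 4 comparisons. It went to -0.31 in DKO tumours against DKO non-tumour liver and to 0.12 in DKO against Atg7KO non-tumour liver. It went to -0.25 in DKO against Atg7KO tumours and to -0.34 for the interaction. With 1 library left out, it ranged from -0.94 to -0.61, 0.35 to 0.68, -0.57 to -0.44 and -1.18 to -0.87 in these, and from 0.12 to 0.31 in Atg7KO tumours against Atg7KO non-tumour liver.

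Counts of called genes depend on the tool. EdgeR called 0 in each comparison. In the order DKO tumours, Atg7KO tumours, non-tumour liver, tumours between genotypes and interaction, DESeq2 called 48, 2, 5, 10 and 32, and limma voom 0, 1, 18, 2 and 0. With 1 library left out, edgeR called 0 to 43 genes in DKO tumours and 0 to 2 between the tumours of the genotypes, in both cases above 0 only without DKO non-tumour replicate 3, and 0 in the other comparisons. Without the filter it called 1 gene between the tumours. The cause of these differences between tools was not tested.

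For DKO tumours against DKO non-tumour liver, 9 of the 87 genes were above 0 with the length curve, against 1 without it. Of the genes named by rule, 4 changed sign under some alternative. Ndufa4l2 stood at 0.39 and Cox7a1 at 0.36 with the length curve. With 1 DKO library left out, Ndufa4l2 ranged from -0.15 to 0.13, Cox7a1 from -0.71 to 0.087, Cox4i2 from -0.28 to 0.50 and Ndufs1 from -0.25 to 0.050.

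Nothing but a number links a tumour to a non-tumour library. Correlations of same-numbered libraries were 0.07, 0.33 and 0.02 in DKO and 0.02, 0.06 and 0.31 in Atg7KO, all above 0. Those of differently numbered libraries ranged from -0.25 to 0.16 in DKO and from -0.22 to 0.11 in Atg7KO. Not every library correlated best with its own number. The labels do not say that the numbers mark pairs, so the main fit did not use them. With a replicate block edgeR called 0 genes in DKO tumours, Atg7KO tumours and the interaction, and the medians were -0.76, 0.24 and -0.97. DKO and Atg7KO libraries also share numbers, with correlations from -0.12 to 0.08. A replicate block of the number alone, added after seeing the data, gave 0 calls in both comparisons between genotypes and medians of 0.48 in non-tumour liver and -0.51 in tumours. No block changed a call.

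Genes under about 30 reads per library, such as Cox7a1 and Cox4i2, are limited by depth.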

Other observations

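A list of 23 other mitochondrial genes (citric acid cycle, import, outer membrane channels, chaperones, inner membrane structure) had a median log2 fold change of -0.26 in DKO tumours against DKO non-tumour liver, with 19 below 0, and of -0.11 with a length curve in the fit. DESeq2 called 4 of them lower, against 4.1% of all genes: the fumarase gene Fh1 (-1.13), Suclg1 of succinyl-CoA ligase (-0.74), the import channel gene Timm23 (-0.64) and the prohibitin gene Phb2 (-0.75). EdgeR called 0. In Atg7KO tumours against Atg7KO non-tumour liver the median of the list was 0.15, with 16 above 0. Ndufaf4, an assembly factor of complex I, was the longest of the 92 genes at 3632 bases and was 0.83 higher in DKO than in Atg7KO non-tumour liver (edgeR adjusted p = 0.226), with no overlap between the libraries.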
